A study of Mus musculus with 12 samples.

Results

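Trimethylation of histone H3 at lysine 4 (H3K4me3) was examined at 10 genes that shape the mitochondrial network of cardiomyocytes (CMs), the contractile cells of the heart. The genes were Mfn1, Mfn2 and Opa1 for fusion, Dnm1l, Fis1 and Mff for fission, Pink1 and Fundc1 for mitophagy, and Tfam and Polg for upkeep of mitochondrial DNA (mtDNA). Every H3K4me3 peak named after one of these genes was taken from the deposited table, which gave 10 of 15848 peaks, 1 for each gene. Chromatin immunoprecipitation followed by sequencing (ChIP–seq) had been carried out on PCM1+ nuclei sorted from adult ventricles. The Cpt1bcKO mice carried αMHC-Cre and Cpt1b fl/fl alleles, so that exons of Cpt1b, the carnitine palmitoyltransferase of muscle through which long-chain fatty acids enter mitochondria, were deleted in CMs from embryonic stages onwards. The CtrlCre mice carried the same αMHC-Cre with wild-type Cpt1b, both genotypes were kept on a C57BL/6 background, and an age in weeks was not given for these libraries. There were 3 H3K4me3 libraries per genotype. The comparison asked whether promoters of these genes differed in the mark, relative to other peaks, when CMs could not import long-chain fatty acids for oxidation. By western blot of sorted CM nuclei, the paper reports a lower level of H3K4me3 in Cpt1bcKO. The values used here cannot show a change shared by all peaks.

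Mitochondria fuse and divide continuously. Mitofusins (Mfn1 and Mfn2) tether and fuse the outer membranes and Opa1 fuses the inner membranes, whereas the dynamin Dnm1l is recruited to the outer membrane by adaptors such as Mff and Fis1 and pinches the organelle apart. Pink1, a kinase that accumulates on depolarized mitochondria, and Fundc1, an outer membrane receptor for the autophagy machinery, mark mitochondria for removal, and Tfam and Polg package and replicate mtDNA. CMs are packed with mitochondria and depend on this turnover for steady energy supply. H3K4me3 collects at the transcription start sites of active or poised genes, and broad domains of the mark are known from genes that define a cell type.

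All 10 peaks covered at least 1 annotated start of their own gene (GENCODE vM21 annotation of GRCm38/mm10, the build of the table). The mitofusin genes had the widest peaks. The Mfn2 peak (chr4:147900987-147905280, 4293 bases, minus strand gene) reached from 593 bases before to 3699 bases after the start nearest to its summit, and 75.4% of it lay in introns. The Mfn1 peak (chr3:32529166-32533281, 4115 bases, plus strand gene) ran from 298 bases before to 3816 bases after the start, with 75.9% in introns, and it also held a second start 2089 bases downstream. The Polg peak (chr7:79464836-79467359, 2523 bases, minus strand gene) was the third widest and extended 997 bases before the start. The narrowest peak was that of Fundc1 (chrX:17571501-17572317, 816 bases, minus strand gene), which lay wholly within the annotated gene and held 3 of its starts.

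The remaining 6 peaks were between 1127 and 1954 bases wide. They were those of Mff (chr1:82724418-82726372), Dnm1l (chr16:16357542-16359437), Opa1 (chr16:29578938-29580731), Tfam (chr10:71237010-71238502), Fis1 (chr5:136952803-136954060) and Pink1 (chr4:138325351-138326478). In 4 cases another annotated gene overlapped the peak. The start of Gm10616, an unreviewed transcript on the opposite strand, lay 47 bases before that of Polg. Starts of C430014B12Rik, a noncoding transcript on the opposite strand, lay 169 and 221 bases after that of Mff. The annotated miRNA gene Gm27646 began 151 bases after the start of Pink1, and the antisense gene Gm49521 overlapped the Dnm1l peak with no start in it. ChIP signal carries no strand, so the share of these neighbours in the Polg, Mff, Pink1 and Dnm1l values cannot be told apart from that of the named genes.

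**Figure D1:**
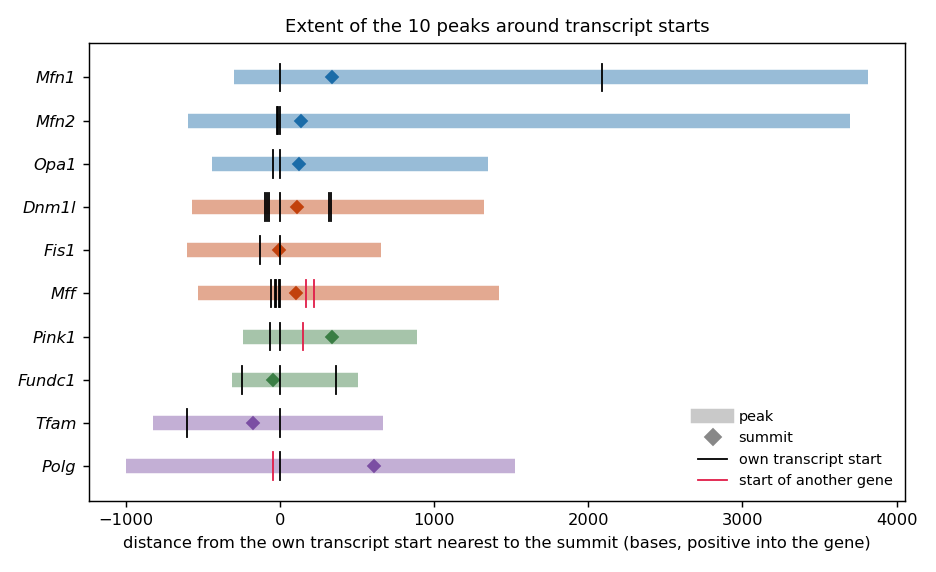
Extent of the H3K4me3 peak of each gene, in bases from the own transcript start nearest to the peak summit, with positive distances running into the gene; bars are peaks, diamonds are summits, black ticks are own starts and red ticks are starts of other genes. The Mfn2 and Mfn1 peaks extend 3699 and 3816 bases into the gene, and every bar spans position 0.

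Mfn1 and Mfn2 encode related proteins and had peaks of similar width, so the DNA just before their first annotated starts is shown here for comparison (RefSeq promoters, GRCm38.p6; 5′ to 3′ on the strand of the gene, Mfn1 at chr3:32529232-32529464 on the plus strand and Mfn2 at chr4:147904910-147905159 on the minus strand). Capitals mark matches to CCGGAAGT, the core bound by ETS factors, and to GGGCGG, the GC box bound by SP factors, which reads CCGCCC on the other strand.
Mfn1: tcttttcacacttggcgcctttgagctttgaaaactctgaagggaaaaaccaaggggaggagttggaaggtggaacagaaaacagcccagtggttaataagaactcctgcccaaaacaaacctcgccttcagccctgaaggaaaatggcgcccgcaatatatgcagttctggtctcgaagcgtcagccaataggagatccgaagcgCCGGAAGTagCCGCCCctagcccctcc
Mfn2: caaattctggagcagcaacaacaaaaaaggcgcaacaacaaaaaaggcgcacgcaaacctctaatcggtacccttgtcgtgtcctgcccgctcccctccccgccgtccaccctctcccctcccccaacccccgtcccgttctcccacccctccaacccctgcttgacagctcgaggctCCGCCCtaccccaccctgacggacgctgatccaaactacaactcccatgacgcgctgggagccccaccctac
Upstream of Mfn1 the ETS letters and a GC box followed each other within a few bases, whereas the Mfn2 sequence held a GC box and no ETS letters.

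The 10 genes were searched for 6 motifs on both strands of the RefSeq window of 300 bases around the start nearest to the summit (250 bases before and 50 after). The ETS letters stood in the windows of 4 of the 10 genes, Mfn1, Fis1, Tfam and Polg, compared to 3.89% of 32851 windows of all genes and 8.47% of the 12912 windows whose start lay in a tested peak. NRF1 letters (GCATGCGC), known from promoters of nuclear genes for mitochondrial proteins, stood in the window of Opa1 only, as a pair of overlapping matches on opposite strands, compared to 2.71% and 5.68% of windows. The sites are shown with their surroundings, capitals marking the matched letters (Mfn1 chr3:32529428-32529455, plus strand; Fis1 chr5:136953247-136953274, plus strand; Tfam chr10:71238074-71238101, minus strand; Polg chr7:79466294-79466321, minus strand; Opa1 chr16:29579266-29579293, plus strand).
Mfn1 ETS: atccgaagcgCCGGAAGTagccgcccct
Fis1 ETS: gaggcaccacCCGGAAGTtcaggcttcc
Tfam ETS: ctgccgcggaCCGGAAGTccgggcttcc
Polg ETS: aggacctcacCCGGAAGTccctctgcac
Opa1 NRF1: tggctccccGCGCATGCGCatgtcatcc
The ETS matches began 44, 18, 47 and 38 bases before the RefSeq starts of Mfn1, Fis1, Tfam and Polg, and the NRF1 matches began 59 and 57 bases before that of Opa1. GC boxes (GGGCGG) stood in 8 of the 10 windows, all but those nearest to the summits of Mfn2 and Fundc1, compared to 35.7% of all windows and 68.0% of those starting in a tested peak. No window of the 10 held the letters of ERR (TCAAGGTCA; 0.423% of all windows, 0.201% in tested peaks), YY1 (AAGATGGCG; 1.40% and 3.15%) or the E-box (CACGTG; 7.15% and 10.5%). These are letter matches and were not tested for binding.

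The values are counts in each peak that the authors divided by a size factor of each library and rounded, here called normalized counts, and every difference is relative to the bulk of the peaks. The whole counts behind them, recovered from the table, totalled between 763133 in CtrlCre replicate 2 and 2766416 in Cpt1bcKO replicate 2, and at the 10 peaks they ranged from 27 for Fundc1 to 438 for Mfn1. Log2 values over peaks correlated between libraries at 0.914 to 0.967. Replicate 3 of each genotype stood apart by 4 Y-linked peaks, at 70 to 130 normalized counts in CtrlCre and 49 to 106 in Cpt1bcKO, and listed at 0 in the other libraries. Of 8 fixed CM markers, including Myh6 and Ryr2, all had peaks, with summed normalized counts of 6886 to 8186 in CtrlCre and of 6609, 7595 and 5258 in Cpt1bcKO replicates 1 to 3. Single markers differed in direction. Myh6 held 2605, 2399 and 2930 in CtrlCre and 2142, 2446 and 1544 in Cpt1bcKO. Mybpc3 held 661, 760 and 690 against 791, 966 and 777. The paper reports lower H3K4me3 at CM maturation genes in these mice, so the sum does not gauge CM content alone. Only 3 of 18 nonmyocyte markers had one (Pdgfra, Kdr and Cspg4), with sums of 167, 233 and 174 in CtrlCre and 126, 117 and 152 in Cpt1bcKO, while Col1a1, Pecam1, Cdh5 and Ptprc had none under their names. In CtrlCre against Cpt1bcKO, Cspg4 held 59, 84 and 42 against 36, 16 and 38, without overlap. The groups overlapped for Pdgfra (69, 58 and 68 against 59, 56 and 63) and Kdr (39, 91 and 64 against 31, 45 and 51). The lower nonmyocyte sums move with genotype, and their part in the results below was not tested. The peak of the deleted gene, Cpt1b, held 428, 407 and 436 normalized counts in CtrlCre and 572, 689 and 568 in Cpt1bcKO, which measures the mark and does not check the deletion.

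The density of the mark, as mean normalized count per kilobase of peak over the 6 libraries, spanned a 2.21-fold range among the 10 genes. Tfam (114), Opa1 (109) and Mff (102) were the densest, at the 93.7th, 91.2nd and 87.6th percentile of 15039 tested peaks, whose median was 60.5 per kilobase. Their ranges over libraries overlapped, from 105 to 126 for Tfam, from 99.8 to 123 for Opa1 and from 95.7 to 114 for Mff. Dnm1l (85.2), Fis1 (82.6), Pink1 (79.1) and Fundc1 (69.2) followed, and their ranges overlapped as well. Mfn1 (57.0), Polg (56.9) and Mfn2 (51.7) were the least dense and lay below the median. In Mfn2, the least dense, the libraries ranged from 43.8 to 57.5 per kilobase. All of them lay below every library of Tfam, Opa1, Mff, Dnm1l, Fis1 and Pink1.

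The 3 widest peaks were also the 3 least dense. This density divides the count by the width, so wide peaks are not weak in total signal. By mean normalized count, Mfn1, Mfn2 and Polg lay at the 90.1st, 88.3rd and 67.5th percentile of tested peaks. With broad peaks defined as those wider than the 75th percentile of tested peaks (2222 bases) and narrow peaks as those below the 25th (1030 bases), Mfn2, Mfn1 and Polg were broad, Fundc1 was narrow and the other 6 genes were medium. The widths of the Mfn2 and Mfn1 peaks lay at the 94.9th and 94.3rd percentile of tested peaks. The mitofusin peaks were also poor in CpG, with observed over expected CpG ratios of 0.39 for Mfn2 and 0.42 for Mfn1 compared to a median of 0.643, whereas the broad Polg peak was CpG rich at 0.82. The narrow Fundc1 peak was nearly as poor in CpG as the mitofusin peaks, at 0.46. GC content was lowest in Mfn1 (45.1%) and highest in Pink1 (64.9%), around a median of 55.6% for tested peaks.

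**Figure D2:**
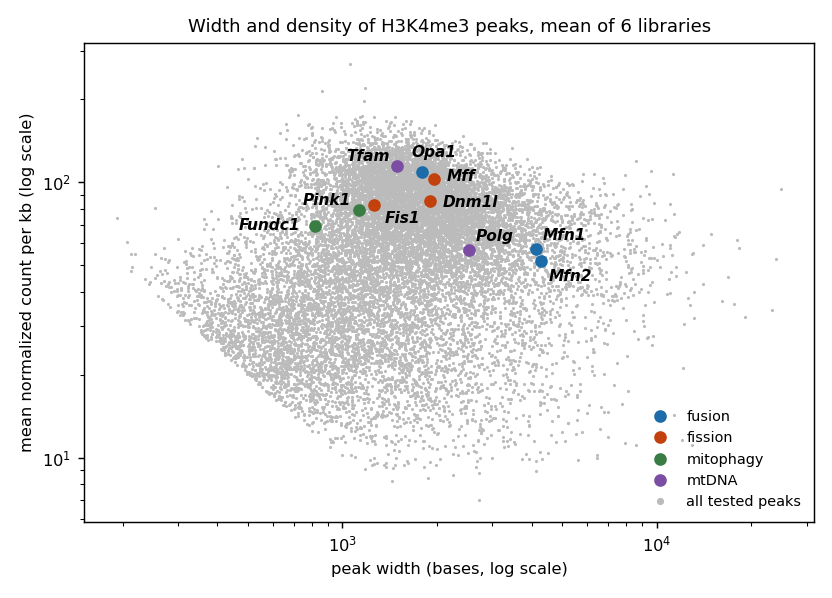
Peak width (bases) against the mean normalized count per kilobase over 6 libraries, both on log scales, for all 15039 tested peaks (grey) and the 10 genes, coloured by role. Mfn1, Mfn2 and Polg lie to the right at 51.7 to 57.0 per kilobase, while Tfam, Opa1 and Mff lie near the top at medium width.

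No gene of the 10 passed the test between genotypes after adjustment. Of the fusion genes, Mfn2 had a lower mean in Cpt1bcKO, and Mfn1 and Opa1 had higher means with overlapping groups. For Mfn2, the mitofusin that also ties mitochondria to the sarcoplasmic reticulum, CtrlCre replicates 1 to 3 held 247, 237 and 240 normalized counts and Cpt1bcKO replicates held 196, 224 and 188. Every Cpt1bcKO library lay below every CtrlCre library, with means of 241 ± 5.13 and 203 ± 18.9 (SD, n = 3 each). The log2 difference was −0.25 (SE 0.10, 95% interval −0.46 to −0.046) and the adjusted p was 0.246 (limma, Benjamini–Hochberg over all tested peaks). Before adjustment Mfn2 passed 0.05, and it no longer did so without CtrlCre replicate 1, Cpt1bcKO replicate 1 or Cpt1bcKO replicate 3, where the differences were −0.24, −0.23 and −0.20. Among the 4 libraries without Y-linked signal it was −0.21 (SE 0.12).

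Mfn1, the other mitofusin, held 231, 198 and 229 normalized counts in CtrlCre and 250, 285 and 213 in Cpt1bcKO. Its groups overlapped through Cpt1bcKO replicate 3, the library with the lowest summed CM markers. The means were 219 ± 18.5 and 249 ± 36.0 (SD, n = 3 each), and the log2 difference was 0.18 (SE 0.11, interval −0.053 to 0.41, adjusted p = 0.558, limma). Without Cpt1bcKO replicate 3 the difference was 0.29, and without Cpt1bcKO replicate 2, the highest library, it was 0.076. Among the 4 libraries without Y-linked signal it was 0.32 (SE 0.12), and there Mfn1, not Mfn2, was the gene of the 10 with an unadjusted p under 0.05. Opa1 held 193, 191 and 179 normalized counts in CtrlCre and 210, 220 and 180 in Cpt1bcKO. Here too Cpt1bcKO replicate 3 fell among the controls, and the log2 difference was 0.11 (SE 0.11, interval −0.11 to 0.33, adjusted p = 0.749, limma).

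The ratio of the Mfn2 to the Mfn1 density within a library does not depend on how libraries are scaled to each other. Per kilobase and on the log2 scale it was 0.036, 0.20 and 0.0066 in CtrlCre replicates 1 to 3 and −0.41, −0.41 and −0.24 in Cpt1bcKO replicates. The densities were thus nearly equal in CtrlCre replicates 1 and 3, and Mfn2 was the less dense in each Cpt1bcKO library. The means were 0.080 (SD 0.10) and −0.35 (SD 0.098). This ratio was chosen after the values had been seen and was given no test. The summed normalized counts of the 3 fusion genes were 648 ± 22.5 in CtrlCre and 655 ± 74.0 in Cpt1bcKO (SD), so the group as a whole differed by less than its spread.

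Among fission genes, Fis1, an outer membrane adaptor, had the most positive difference of the 10 genes. It held 96, 100 and 88 normalized counts in CtrlCre and 135, 105 and 99 in Cpt1bcKO, where replicate 1 stood above the rest and replicate 3 overlapped the controls. The log2 difference was 0.24 (SE 0.14, interval −0.052 to 0.54, adjusted p = 0.514, limma), and 0.11 without Cpt1bcKO replicate 1. Mff, the main adaptor for Dnm1l, held 222, 216 and 189 normalized counts in CtrlCre and 187, 198 and 188 in Cpt1bcKO. CtrlCre replicate 3 lay within the Cpt1bcKO range, and the log2 difference was −0.13 (SE 0.10, interval −0.34 to 0.086, adjusted p = 0.689, limma).

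Dnm1l, the fission dynamin itself, held 173, 156 and 147 normalized counts in CtrlCre and 157, 186 and 150 in Cpt1bcKO. The groups were interleaved, with a log2 difference of 0.047 (SE 0.11, interval −0.19 to 0.29, adjusted p = 0.928, limma) that turned to −0.045 without Cpt1bcKO replicate 2. The summed fission genes held 462 ± 34.5 normalized counts in CtrlCre and 468 ± 27.6 in Cpt1bcKO (SD). Within libraries, the log2 ratio of Mff to Fis1 per kilobase was 0.57, 0.48 and 0.47 in CtrlCre and −0.17, 0.28 and 0.29 in Cpt1bcKO, again a ratio picked after its values were seen and not tested.

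**Figure D3:**
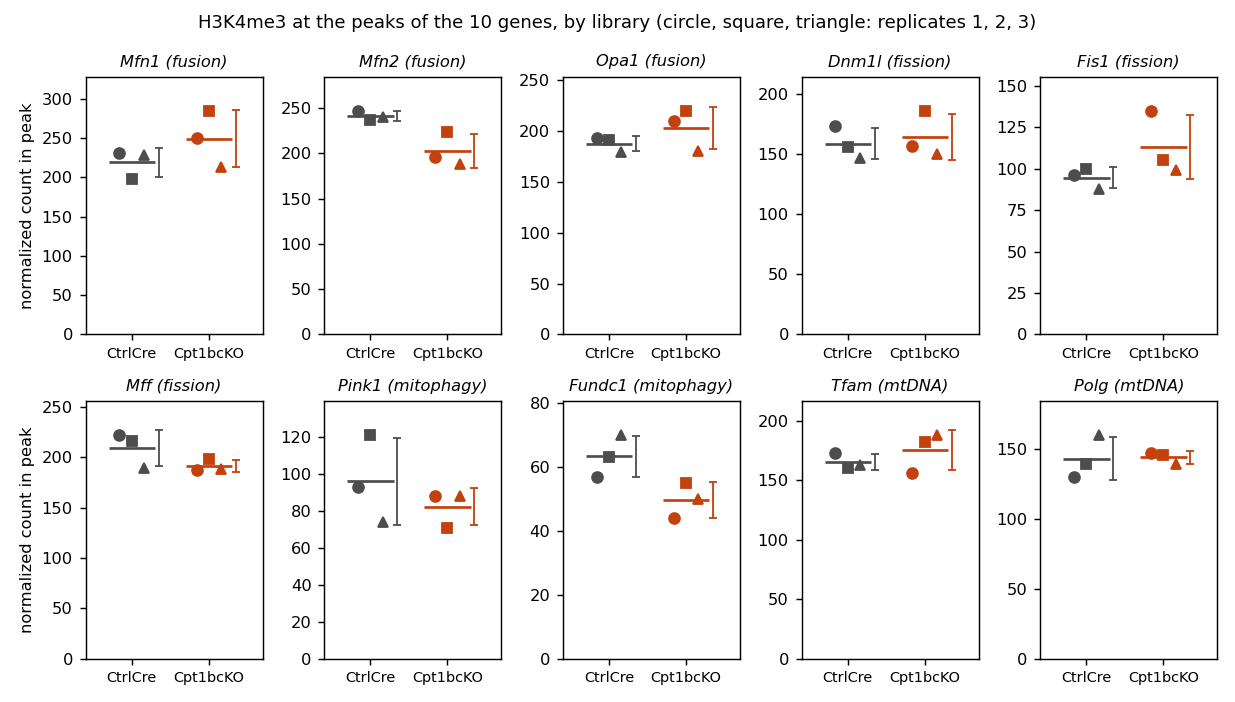
Normalized H3K4me3 counts in the peak of each gene for the 3 CtrlCre (grey) and 3 Cpt1bcKO (orange) libraries, with circles, squares and triangles for replicates 1, 2 and 3, lines for means and bars for SD; each vertical axis starts at 0. The genotypes separate without overlap for Mfn2 (237 to 247 against 188 to 224) and Fundc1 (57 to 70 against 44 to 55).

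Both mitophagy genes had lower means in Cpt1bcKO, and neither passed the test. The X-linked gene Fundc1 held 57, 63 and 70 normalized counts in CtrlCre and 44, 55 and 50 in Cpt1bcKO, so that all Cpt1bcKO libraries lay below all CtrlCre libraries. The means were 63.3 ± 6.51 and 49.7 ± 5.51 (SD, n = 3 each), and the log2 difference of −0.35 was the most negative of the 10 genes (SE 0.19, interval −0.74 to 0.053, adjusted p = 0.478, limma). Its recovered counts were the lowest of the 10 genes, 27 in CtrlCre replicate 2 and up to 84 in Cpt1bcKO replicate 2. With a term for the Y-linked signal the difference was again −0.35, and among the 4 libraries without that signal it was −0.28 (SE 0.24).

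Pink1 held 93, 121 and 74 normalized counts in CtrlCre and 88, 71 and 88 in Cpt1bcKO. CtrlCre replicates 2 and 3 were the highest and nearly the lowest of the 6 libraries, and the groups overlapped. The means were 96.0 ± 23.6 and 82.3 ± 9.82 (SD, n = 3 each), with a log2 difference of −0.20 (SE 0.17, interval −0.55 to 0.15, adjusted p = 0.711, limma). Without CtrlCre replicate 2, the library with the fewest counts, the difference was −0.018, and without CtrlCre replicate 3 it was −0.37. Among the 4 libraries without Y-linked signal it was −0.42 (SE 0.19). The summed mitophagy genes held 150, 184 and 144 normalized counts in CtrlCre and 132, 126 and 138 in Cpt1bcKO. The groups did not overlap in this sum, although they did for Pink1 alone, and no background share was computed for such sums. The means of this sum were 159 ± 21.6 and 132 ± 6.0 (SD), and it was given no test.

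Neither mtDNA gene passed the test. Tfam, which packages mtDNA and drives its transcription, held 173, 160 and 163 normalized counts in CtrlCre and 156, 182 and 188 in Cpt1bcKO. Its log2 difference was 0.080 (SE 0.11, interval −0.14 to 0.31, adjusted p = 0.840, limma), and Cpt1bcKO replicate 1 lay below all controls while the other two lay above them. Polg, the catalytic subunit of the mtDNA polymerase, held 130, 139 and 160 normalized counts in CtrlCre and 147, 146 and 139 in Cpt1bcKO. The Cpt1bcKO values lay within the CtrlCre range, with a log2 difference of 0.015 (SE 0.12, interval −0.22 to 0.25, adjusted p = 0.981, limma). The summed mtDNA genes held 308 ± 12.9 normalized counts in CtrlCre and 319 ± 14.2 in Cpt1bcKO (SD).

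Across the 10 genes, 6 differences were positive and 4 negative, next to 51.2% positive among tested peaks. Their median was 0.031 on the log2 scale (0.0057 over all tested peaks), and their median size regardless of sign was 0.15 (0.14 over all). In limma, 0 of the 10 had an adjusted p under 0.05, compared to a background of 2.93% of tested peaks, and 1 of 10, Mfn2, had an unadjusted p under 0.05, compared to 12.8%. The limma-voom fit on the recovered counts likewise gave 0 and 1. Groups that did not overlap were found for 2 of 10 genes with Cpt1bcKO lower (background 8.46%) and for 0 of 10 with Cpt1bcKO higher (background 7.80%). SEs at the 10 genes ran from 0.10 to 0.19, with a median of 0.11 compared to 0.15 for tested peaks, so that intervals still allow differences in either direction for all genes but Mfn2. The 4 genes with ETS letters had differences of 0.015 to 0.24 and the other 6 of −0.35 to 0.11, ranges that overlap.

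**Figure D4:**
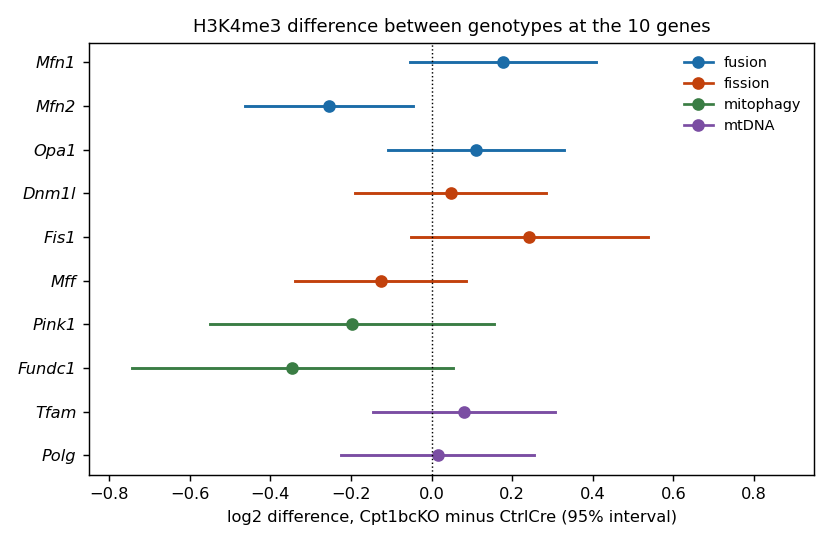
Log2 difference in H3K4me3 (Cpt1bcKO minus CtrlCre) at the 10 genes with 95% intervals from limma, coloured by role; the dotted line marks no difference. The interval of Mfn2, −0.46 to −0.046, is the only one of the 10 that leaves out 0.

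A wider list of 74 further genes with the same roles was examined through the strongest peak of each gene, and 64 had a tested peak under their name. In limma, 6 of 64 genes (9.38%) were higher in Cpt1bcKO at an unadjusted p under 0.05 (background 6.03% of 11067 genes) and 0 were lower (background 5.29%). After adjustment, 1 of 64 was higher (background 0.967%) and 0 lower (background 1.26%). The limma-voom fit found 5 higher and 2 lower at an unadjusted p under 0.05. The median log2 difference was 0.0065, compared to 0.021 over all genes, and 34 genes were positive and 30 negative. Mitophagy genes made up 5 of the 6 at an unadjusted p under 0.05, from 27 with a tested peak, while fusion gave 1 of 11, fission 0 of 9 and mtDNA 0 of 17. Over the 27 mitophagy genes the median log2 difference was 0.018, with 16 positive and 11 negative. Groups did not overlap for 8 genes with Cpt1bcKO higher (12.5%, background 8.39%) and for 1 gene with Cpt1bcKO lower (1.56%, background 6.78%).

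The gene past the adjusted threshold was Optn, a ubiquitin-binding receptor that links damaged mitochondria to autophagosomes. It held 136, 100 and 142 normalized counts in CtrlCre and 196, 209 and 150 in Cpt1bcKO. All Cpt1bcKO libraries were higher, by 0.55 on the log2 scale (SE 0.14, interval 0.26 to 0.84, adjusted p = 0.0289, limma). The call was lost without CtrlCre replicate 1 (0.62, adjusted p = 0.0591), CtrlCre replicate 2 (0.40, 0.107), Cpt1bcKO replicate 1 (0.50, 0.174) or Cpt1bcKO replicate 2 (0.46, 0.196), each value being the log2 difference followed by the adjusted p in limma. It was also lost with limma-voom (0.45, adjusted p = 0.0813) and among the 4 libraries without Y-linked signal (0.79, adjusted p = 0.0629, limma), and the difference stayed positive in all of these.

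The other genes of that set missed the adjusted threshold. Groups that do not overlap were a condition for naming them, so this trait adds no evidence. Pgam5, a mitochondrial phosphatase that acts on Fundc1, held 103, 84 and 117 normalized counts in CtrlCre and 146, 131 and 132 in Cpt1bcKO (log2 difference 0.44, adjusted p = 0.0927, limma). Sqstm1, which encodes the autophagy receptor p62, held 260, 244 and 278 against 310, 324 and 290 (0.24, adjusted p = 0.258). A weaker second peak of Sqstm1 went the other way, at 30, 26 and 35 in CtrlCre and 19, 19 and 11 in Cpt1bcKO (−0.88, SE 0.34, adjusted p = 0.223, limma). Nbr1, a related receptor, held 207, 163 and 208 against 210, 241 and 237 (0.26, adjusted p = 0.310). Gabarapl1, a ubiquitin-like protein of the autophagosome membrane, held 236, 249 and 240 against 278, 306 and 264 (0.22, adjusted p = 0.310). Phb2, an inner membrane prohibitin listed with fusion, held 330, 344 and 346 against 410, 397 and 370 (0.20, adjusted p = 0.340).

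By the strongest peak of each gene, Pld6 was the only gene of the 64 whose groups separated with Cpt1bcKO lower. The second Sqstm1 peak given above separated in the same direction. Pld6 encodes an outer membrane phospholipase that promotes fusion, and it was named after its values had been seen. It held 40, 35 and 39 normalized counts in CtrlCre and 27, 24 and 29 in Cpt1bcKO, a log2 difference of −0.50 (SE 0.26, interval −1.04 to 0.045, adjusted p = 0.443, limma). Bnip3, a stress-induced mitophagy receptor, held 226, 198 and 319 normalized counts in CtrlCre and 220, 215 and 255 in Cpt1bcKO (log2 difference −0.081, adjusted p = 0.874, limma), with CtrlCre replicate 3 far above the rest.

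**Figure D5:**
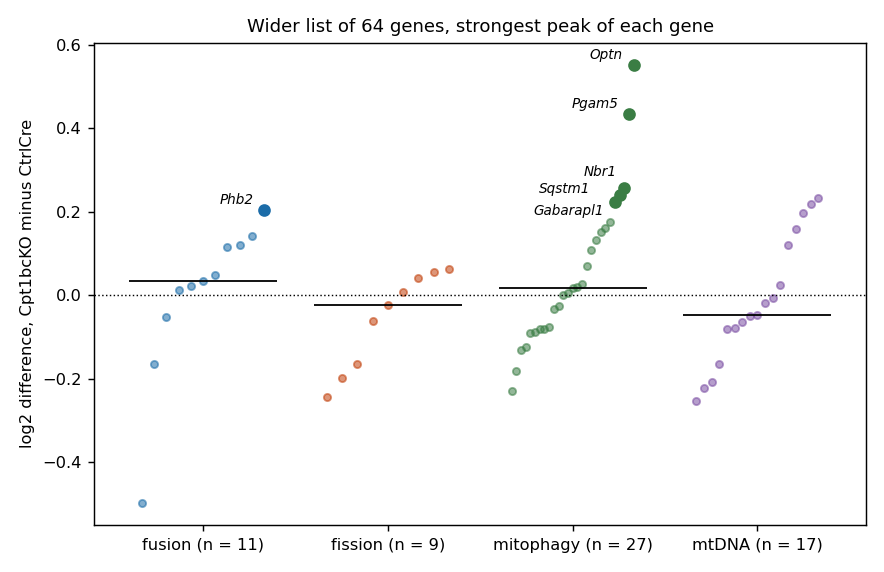
Log2 difference in H3K4me3 (Cpt1bcKO minus CtrlCre) at the strongest peak of 64 further genes, by role and sorted within each role; lines are medians, large labelled points have an unadjusted p under 0.05 in limma and groups that do not overlap. Optn at 0.55 is the highest point, and the lowest, among fusion genes, is Pld6 at −0.50.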

How the data were processed

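H3K4me3 ChIP–seq was available for 3 CtrlCre and 3 Cpt1bcKO libraries. As described in the study's methods and the submitters' processing notes, the authors trimmed reads with Trimmomatic 0.39, aligned them to mm10 with STAR 2.6.1d, removed duplicates with Picard 2.21.7, ran the peak caller MUSIC on every ChIP sample with the matching input as background (false discovery rate 0.2), merged them to 15848 union peaks and named each after the nearest promoter within 5000 bases. The authors counted union peaks from coverage tracks, so 1 count need not be 1 read, and normalized with DESeq2 1.26.0, which hides a change shared by all peaks. The deposited normalized counts had been rounded to integers by the authors and were handled as a score. The unrounded genotype means are a signal column computed by the authors. Columns of the authors' fold changes and p-values were not used, and input libraries have no columns in this table.

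Peaks with a mean of at least 10 (15039) were compared on log2(value + 1) with limma 3.58.1 in R 4.3.3 (trended empirical Bayes, genotype as the only term, two-sided, Benjamini–Hochberg over all tested peaks), so fold changes of low peaks are understated. Whole counts were recovered by searching for counts that give the rounded values and the unrounded means, with 1 solution for 15848 of 15848 peaks. Both procedures were tested on simulated data. Normalized counts of genes are compared with each other only per kilobase, except for the percentiles of mean count given for the widest peaks. The study's methods state biological replicates for its mouse experiments, but the labels tie no library to an animal, so p-values measure the spread between these samples. The 10 genes, the wider list and the markers were chosen with earlier results of these data known, so no list was tested as a set. All peaks of the 10 genes are reported; in the wider list, genes past the adjusted threshold were named, and in each direction up to 5 more with the smallest unadjusted p under 0.05 and groups that do not overlap. Other named genes are Pld6 and Bnip3, chosen after their values were seen. Alternatives were other pseudocounts (4), filters (none, 50), scalings and models, each library left out, and, chosen after seeing the data, a term for Y-linked signal and the 4 libraries without it. Peak positions are printed as the table gives them.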

Additional observations from a re-analysis of the deposited data

How the results depend on the processing

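At the 10 genes, 0 adjusted calls were made under any alternative, and their median difference stayed between −0.020 and 0.038. Over all peaks, 441 adjusted calls became 370 with the replicate number as a block (replicate block), 229 to 431 with single libraries left out, 229 being without CtrlCre replicate 1, 246 without Cpt1bcKO replicate 3, 288 without Cpt1bcKO replicate 2, and 82 in the 4 libraries without Y-linked signal. Same-numbered libraries did not deviate together (correlations of 0.0759, −0.0812 and 0.105), so numbers were not taken as pairs. The unadjusted count of 1 among the 10 genes ranged from 0 (without CtrlCre replicate 1 or Cpt1bcKO replicate 1) to 2, which were Mfn2 and Pink1 without CtrlCre replicate 3 and Mfn1 and Fis1 without Cpt1bcKO replicate 3. In the wider list, the adjusted count of 1 was 0 with limma-voom, 0 to 2 with single libraries left out and 0 in the 4 libraries; Optn had adjusted p of 0.0142 to 0.196 over all alternatives. Unadjusted higher calls there (6) ranged from 2 (without Cpt1bcKO replicate 2) to 6, with 3 without Cpt1bcKO replicate 1, and lower calls (0) from 0 to 3 (without CtrlCre replicate 3 or Cpt1bcKO replicate 2), with 1 under quantile normalization and 2 with limma-voom. Polg turned to −0.0095 under quantile normalization and ranged from −0.051 to 0.098 with single libraries left out, and Dnm1l from −0.045 to 0.11. The cause of these shifts was not tested. Of 240 alternative values for 16 named peaks, 227 kept direction and call, 6 (all Optn) lost the call, 1 (Pgam5, adjusted p = 0.0489 without CtrlCre replicate 3) gained it and 6 reversed. A call was an adjusted p under 0.05, which only Optn of the 16 had in the main fit. For the others, keeping it meant staying without a call. Pld6, Bnip3 and the second Sqstm1 peak were not among the 16. Summing over the peaks of a gene was not run for the 10 genes, since each has 1 peak.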
